A study of Mus musculus with 20 samples.

Results

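Laminin chains and integrin subunits were followed through the neonatal mouse testis and into purified spermatocytes. The gene table holds 38 such genes of 23366 symbols, chosen by symbol as laminin alpha, beta and gamma chains (11 genes), integrin alpha subunits (18) and integrin beta subunits (8). The same symbol pattern also takes in Itgbl1, an integrin beta-like gene that is not a subunit of an integrin. All RNA came from wild-type C57Bl/6J mice, in 5 groups of 2 biological replicates. The groups were whole testes taken 1, 3 or 7 days after birth, and spermatocytes in leptotene/zygotene or in pachytene, separated by their settling speed from testes of adults (day 70 to 80), with purity judged under the microscope. No group carried a transgene, mutation or treatment, and whether a library came from a single animal or a pool is not given in the sources used here.

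Laminins are secreted trimers of an alpha, a beta and a gamma chain that form the sheet of the basement membrane. Integrins are receptors of an alpha and a beta subunit that span the cell membrane, bind laminin, collagen or fibronectin outside and link to the actin skeleton inside. In the testis the basement membrane surrounds the seminiferous tubule. Sertoli cells and spermatogonia sit on it, whereas spermatocytes move off it as they pass the blood-testis barrier. Blood vessels and the muscle-like peritubular cells have basement membranes of their own, and leukocytes carry integrins that the tubule is not known for.

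Levels are CPM, library-scaled counts after TMM (a method that sets libraries to a common scale), given per library, or as averages over the 2 libraries of a stage. Fold changes are log2 values with their standard error (SE), from edgeR's quasi-likelihood test fitted over all genes, with Benjamini-Hochberg adjusted p and a threshold of 0.05. Gene lengths were not used, so levels are compared for a gene across stages and never between genes. Of the 38 members, 37 had enough counts to be tested. Itgb6, the epithelial partner of Itgav, did not: it had 9 counts in the 10 libraries together, none of them in spermatocytes.

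Gene counts per library came to 3597360 to 22181395, the smallest being the first leptotene/zygotene library. A panel of 9 spermatocyte markers, most of it Ldhc and Pgk2, summed to 11123 and 12662 CPM in the leptotene/zygotene libraries and to 7667 and 9345 in the pachytene libraries, against 87.7 and 79.4 at day 7. Sycp3, part of the chromosome axis of meiosis, was at 39.9 and 60.3 CPM in leptotene/zygotene, against 18.2 and 17.6 at day 7, while the early meiotic recombinase Dmc1 was at 9.73 and 4.91, against 9.93 and 10.1. The leptotene/zygotene libraries also held transcripts of later germ cells. A panel of 8 spermatid markers, such as Prm1 and Tnp1, summed to 65133 and 67660 CPM there, to 8776 and 5325 in pachytene, and to 1.21 and 1.78 at day 7. Pgk2 was also higher in leptotene/zygotene, at 6099 and 3947 CPM, than in pachytene, at 1741 and 938. Ldhc overlapped, at 4136 and 7282 against 4165 and 5589. Neither the sum of the 9 spermatocyte markers nor another level in these fractions can therefore be assigned to spermatocytes alone. Somatic markers varied by cell type. The 12 Sertoli markers summed to 216 and 72.7 CPM in leptotene/zygotene libraries and to 408 and 265 in pachytene libraries, against 5413 and 5658 at day 7. Amh, which defines immature Sertoli cells, whereas these fractions came from adults, was at 0 and 0.902 and at 1.02 and 1.38, against 430 and 436. Clu, another of the 12, was at 69.6 and 20.7 and at 165 and 145, against 1676 and 1662. In bulk RNA, fewer cells of a type and less RNA per cell cannot be told apart. The 6 peritubular markers summed to 518 and 628 CPM in leptotene/zygotene libraries and to 143 and 111 in pachytene libraries, against 1002 and 963 at day 7. Of the leptotene/zygotene sums Actg2 alone gave 413 and 582, and the other 5 fell. The 7 Leydig markers summed to 25.8 and 7.92 CPM in leptotene/zygotene libraries and to 47 and 42.3 in pachytene libraries, against 631 and 815. The 7 endothelial markers summed to 51.6 CPM in the first and 16.3 in the second leptotene/zygotene library, and to 49.6 and 17.8 in the pachytene ones, so the first libraries were higher for Sertoli, Leydig and endothelial markers at both stages.

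**Figure D1:**
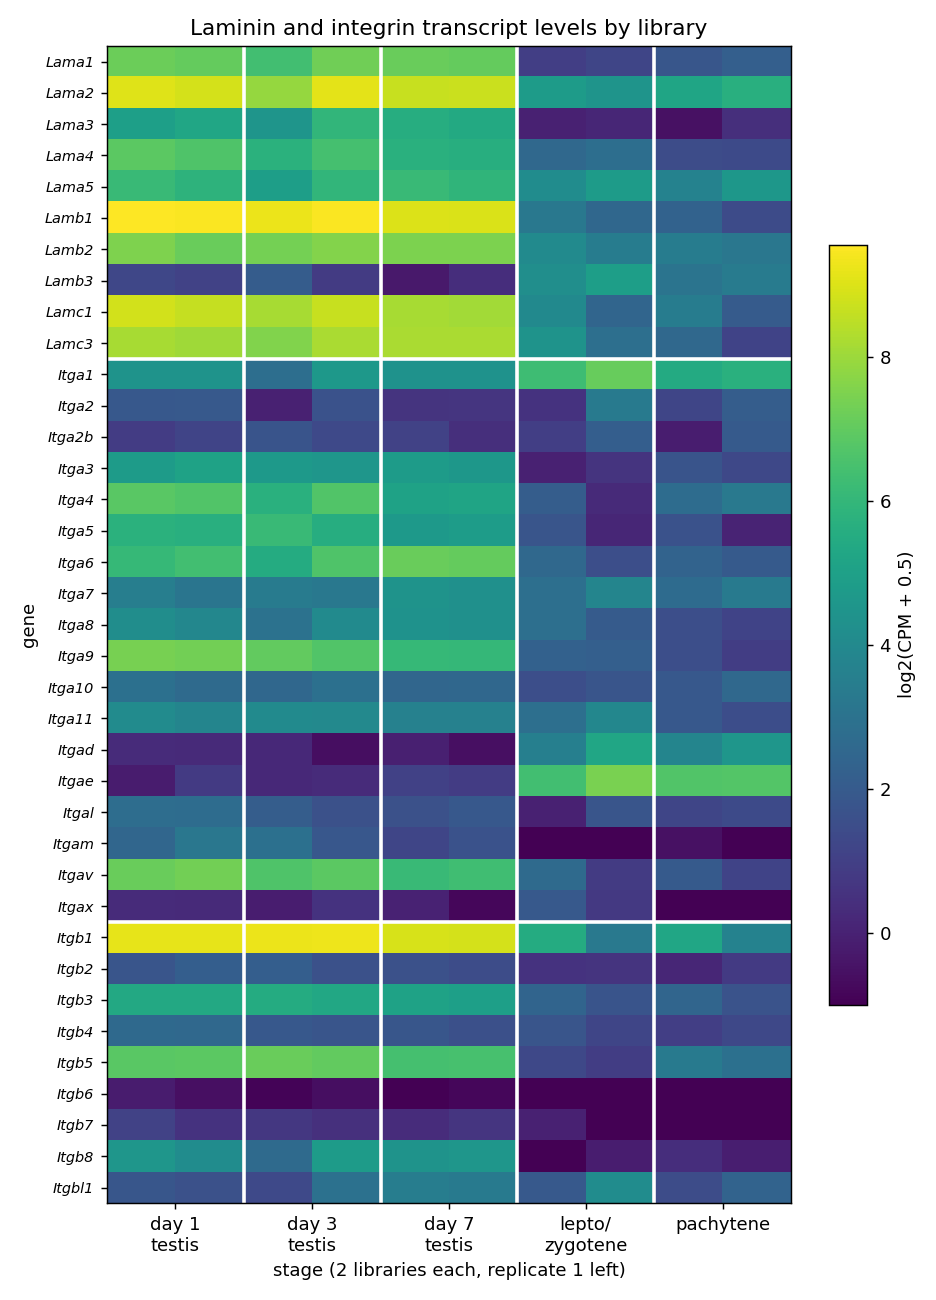
Level of 37 of the 38 genes (rows, laminin chains above, integrin alpha subunits in the middle, integrin beta subunits and Itgbl1 below) in the 10 libraries (columns, 2 per stage, replicate 1 on the left), as log2(CPM + 0.5). Most rows are bright in the 6 whole-testis libraries and dark in the 4 spermatocyte libraries, while Itgae, Itgad, Itga1 and Lamb3 run the other way.

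Promoters of 4 members are shown because these genes went opposite ways between the day 7 testis and spermatocytes: Lamb3 and Itga1 rose, Lamb1 and Itgb1 fell. The sequences are the 250 bases before a transcript start in RefSeq (GRCm38.p6, a later build than the mm9 of the counts), read 5′ to 3′ along the gene, with capitals marking the GC box GGGCGG and the cAMP response core TGACG on either strand.
Lamb3 (chr1:193301744-193301993, + strand): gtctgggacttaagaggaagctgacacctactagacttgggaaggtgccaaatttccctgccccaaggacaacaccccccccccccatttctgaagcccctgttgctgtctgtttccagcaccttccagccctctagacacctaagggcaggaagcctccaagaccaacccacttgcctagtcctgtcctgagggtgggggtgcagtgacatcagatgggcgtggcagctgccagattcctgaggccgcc
Itga1 (chr13:115101965-115102214, - strand): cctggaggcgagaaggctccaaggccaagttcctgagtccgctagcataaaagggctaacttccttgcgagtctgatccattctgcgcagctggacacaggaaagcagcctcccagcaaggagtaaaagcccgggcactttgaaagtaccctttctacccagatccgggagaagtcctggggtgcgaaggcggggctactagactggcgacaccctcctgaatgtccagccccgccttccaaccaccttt
Lamb1 (chr12:31265043-31265292, + strand): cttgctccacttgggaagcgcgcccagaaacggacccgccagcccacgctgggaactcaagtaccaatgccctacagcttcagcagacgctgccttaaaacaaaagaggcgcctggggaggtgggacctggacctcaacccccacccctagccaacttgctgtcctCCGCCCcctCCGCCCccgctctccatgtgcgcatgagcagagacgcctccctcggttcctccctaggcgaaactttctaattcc
Itgb1 (chr8:128685404-128685653, + strand): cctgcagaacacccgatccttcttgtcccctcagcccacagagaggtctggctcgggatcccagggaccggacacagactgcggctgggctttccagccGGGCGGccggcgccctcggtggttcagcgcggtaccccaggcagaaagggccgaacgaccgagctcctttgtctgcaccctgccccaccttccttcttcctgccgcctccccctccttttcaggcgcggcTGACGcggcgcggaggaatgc

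The GC box, which binds the factor Sp1, was present in the windows of Lamb1 and Itgb1 and absent from those of Lamb3 and Itga1. The cAMP response core, which is part of the site bound by the testis factor CREM, was found only in Itgb1 among these 4. RefSeq promoters were used for 24 of the 38 members, 27 windows in all. A GC box stood in 9 of 16 windows of the 15 genes that fell in spermatocytes. It stood in 0 of 5 windows of the 4 genes that rose, against 32.7% of all 32851 promoters. TGACG stood in 3 and in 0, against 17.8%. The genes that rose are here Itga1, Itga2, Itgax and Lamb3, the last entered by adjoining windows, and no window of Itgae or Itgad was used. Calls of Itga2 and Itgax were lost in several other fits, as given below. The groups were not compared by a test. The TATA box TATAAA was found in none of these windows, against 12.4% of all promoters. The full element TGACGTCA was also in none (1.55% of all promoters), and the MYB core AACNG was in 12 of 16 windows of genes that fell and 4 of 5 of genes that rose, against 74.2%. The median GC content was 60.2% in the windows of genes that fell and 58.8% in those of genes that rose, against 52.4% over all promoters. These matches describe letters in a window and show no binding.

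From day 1 to day 3, when gonocytes resume division, no laminin or integrin gene passed the test. Nor did any other gene: edgeR called 0% of the 16872 genes tested as higher on day 3 and 0% as lower, with 1097 genes at an unadjusted p under 0.05. Among the members 2 had such a p, namely Lama4, the vascular laminin alpha chain, and Itgb4, the beta subunit of epithelial hemidesmosomes, and DESeq2 called 75 genes without a member among them. The members' median log2 fold change was -0.27 and that of all genes 0.00. Replicates on day 3 lay far apart for several members: Lama2, the alpha chain of the muscle and peritubular basement membrane, was at 239 and 555 CPM there, against 530 and 470 on day 1. Itgb8, an activator of latent TGF-beta, was at 5.73 and 27.5 CPM on day 3, against 22.9 and 17 on day 1.

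Between day 1 and day 7 the number of members called depended on which libraries were fitted, as given below. Itga9, a receptor subunit for tenascin and the short Vcam1 and Emilin1 ligands, had 167 and 159 CPM in day 1 testis, 128 and 103 in day 3 testis, and 66.8 and 64.7 in day 7 testis. The libraries of the 3 days do not overlap, and Itga9 fell by 1.31 ± 0.25 between day 1 and day 7 (adjusted p = 0.0291).

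Of the 37 members tested, 0 rose and 2 fell (5.41%) from day 1 to day 7, against 1.08% and 2.28% of all genes. From day 3 to day 7, 0 rose and 1 fell (2.7%), against 0.931% and 0.563% of all genes. These comparisons share the day 7 libraries. Both calls of the day 1 comparison were lost when any of the 4 libraries of days 1 and 7 was left out, and the call from day 3 was lost on dropping the first day 3 library, or any library of days 1 and 7. Without the second day 3 library 2 members were called.

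A fit of the 6 whole-testis libraries alone, which leaves out the more variable spermatocyte libraries, tested 36 members and called more of them. Between day 1 and day 7, 10 members fell (27.8%) and 1 rose (2.78%), against 10.4% and 9.03% of the 15233 genes tested. Lama4 was at 51.5 and 49.3 CPM on day 7, against 120 and 101 on day 1 (-1.10 ± 0.24, adjusted p = 0.0196 in edgeR). Lamb1, the most widely used beta chain, was at 509 and 503 CPM, against 754 and 727 (-0.52 ± 0.14, adjusted p = 0.0406).

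Among receptors the same fit called several subunits of fibronectin and leukocyte adhesion. Itga4, which binds fibronectin and Vcam1, was at 33.4 and 35.3 CPM on day 7, against 116 and 104 on day 1 (-1.66 ± 0.31, adjusted p = 0.0121 in edgeR). Itgav, the alpha subunit of the vitronectin and TGF-beta activating receptors, was at 71.7 and 79.4 CPM, against 142 and 157 (-0.96 ± 0.15, adjusted p = 0.00695). Itga5, the classical fibronectin receptor, fell by 0.91 ± 0.20, and Itgb4 fell by 0.96 ± 0.25. The leukocyte subunit Itgam fell by 1.60 ± 0.45 and Itgal fell by 1.07 ± 0.29, at 2.54 and 3.26 CPM for Itgal on day 7 against 6.29 and 6.13 on day 1. The member that rose was Itga7, a laminin receptor subunit best known from muscle, at 21.1 and 19 CPM on day 7 against 11 and 8.02 on day 1 (1.11 ± 0.20, adjusted p = 0.0118).

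Beside these values, the 7 endothelial markers summed to 218 and 217 CPM on day 7, against 515 and 472 on day 1. The 9 macrophage and leukocyte markers summed to 84.4 and 101 CPM on day 7, against 87.5 and 94.3. The 6 peritubular markers summed to 1002 and 963 CPM, against 784 and 636, and the 7 Leydig markers to 631 and 815 CPM, against 1370 and 1202. Their part in the members' changes was not tested. From day 3 to day 7 the fit of the testis libraries called 5 members lower (13.9%) and 1 higher (2.78%), against 7.35% and 6.6% of genes. Itga4, Itga5, Itga9 and Itgb5 were among those that fell, and Itga7 rose. Between days 1 and 3 it called 0 of 36 members, with 0.046% of genes lower and 0% higher (2829 genes had an unadjusted p under 0.05).

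The laminin receptor subunits Itga6 and Itgb1 passed the test in neither the fit of all libraries nor that of the testis libraries. Itga6, which marks spermatogonial stem cells together with Itgb1, had 67.7 and 80.8 CPM in day 1 testis, 44.9 and 101 in day 3 testis, and 143 and 133 in day 7 testis. Both day 7 libraries lie above the other 4, with a log2 fold change over day 1 of 0.90 ± 0.40 (adjusted p = 0.266 in edgeR). In the same libraries 8 spermatogonial markers summed to 502 and 422 CPM on day 7, against 92.2 and 107 on day 1. Itgb1, the beta subunit shared by most laminin and collagen receptors, had 580 and 568 CPM in day 1 testis, 613 and 635 in day 3 testis, and 479 and 472 in day 7 testis (-0.27 ± 0.61 over day 1, adjusted p = 0.906). In an edgeR fit of days 1 and 7 alone, Itga6 was called higher on day 7 (0.87, adjusted p = 4.34e-05) and Itgb1 lower (-0.29, adjusted p = 0.00763). That fit called 21 members. Its share of all genes called is not given here, so the count is not a result about the members.

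**Figure D2:**
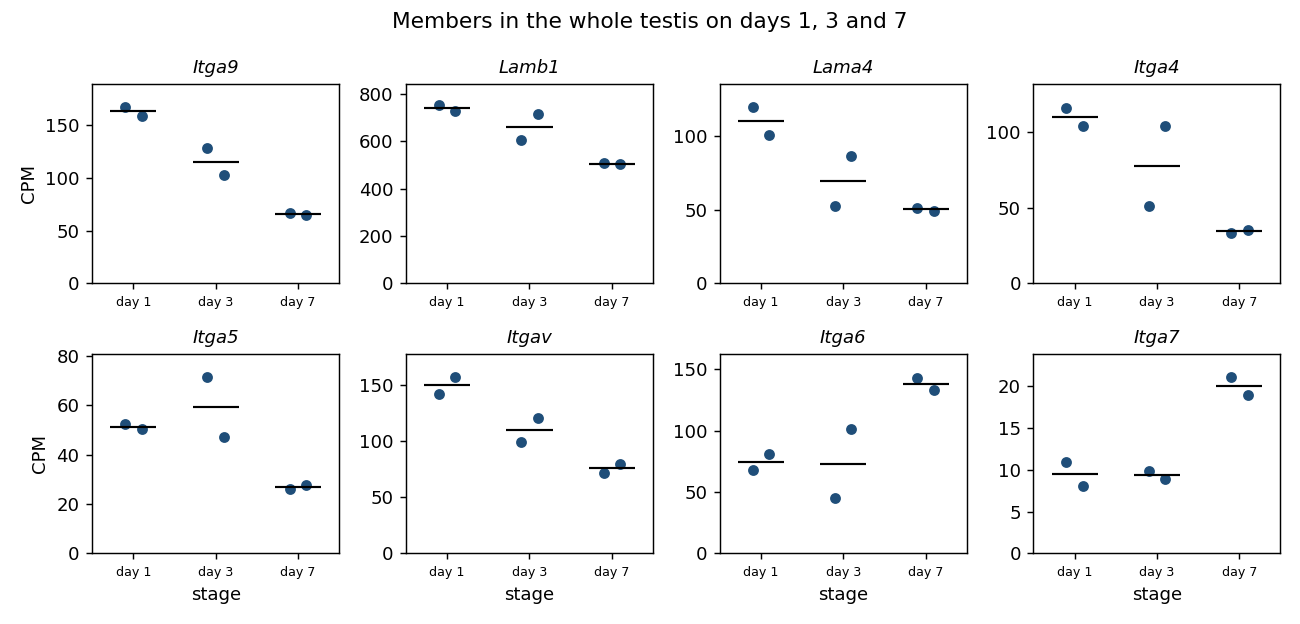
Level in CPM (vertical axis, starting at 0, scaled per gene) of 8 members in the whole testis on days 1, 3 and 7 (horizontal axis). Points are libraries and lines are means of 2; Itga9 steps down at each day, Itga6 and Itga7 are highest on day 7, and the day 3 libraries lie apart for Itga4, Itga5 and Itga6.

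The leptotene/zygotene libraries held far less laminin and integrin transcript than the day 7 testis, with a short list of exceptions. These groups differ at once in age, in cell make-up and in purification, whose parts in the changes cannot be told apart. In the same comparison all 12 Sertoli markers fell (median log2 fold change -5.44), and so did all 7 Leydig markers (median -5.71). Of the 37 members tested, 23 fell (62.2%) and 6 rose (16.2%), whereas 42% of all genes fell and 36.5% rose. The members' median log2 fold change was -3.19, and that of all genes -0.31. By class, 9 of 11 laminin chains fell and 1 rose, 8 of 18 integrin alpha subunits fell and 5 rose, and 6 of 7 tested integrin beta subunits fell and 0 rose. Leaving out either leptotene/zygotene library left 27 members called, 22 lower and 5 higher. The median over all genes depended on scaling: it was 0.01 with median-ratio factors, -0.70 with upper-quartile factors and -1.71 with plain library sizes. Under plain library sizes 29 members fell and 3 rose. The share of all genes called in that fit is not given here, so these counts are not set against it.

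Among the laminin alpha chains, Lama1, an early basement membrane chain of the tubule, was at 1.46 and 1.8 CPM in leptotene/zygotene, against 141 and 132 at day 7 (-6.31 ± 0.43, adjusted p = 1.23e-06 in edgeR). Lama3, the epithelial chain, was at 0.486 and 0.601 CPM, against 46.9 and 41.6 (-6.24 ± 0.68, adjusted p = 2.07e-05). Both were at or below 1.8 CPM in each leptotene/zygotene library, more than an order of magnitude under their testis values. Lama2 was at 27.2 and 21.6 CPM, against 407 and 419 (-4.10 ± 0.42). Lama4 was at 5.35 and 6.61 CPM, against 51.5 and 49.3 (-3.03 ± 0.32). Lama5, the broad alpha chain of mature epithelia and vessels, had the smallest change of the alpha chains, at 17 and 27.1 CPM against 71.1 and 59.5 (-1.53 ± 0.43, adjusted p = 0.00786).

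Beta and gamma chains named here fell with the alpha chains, apart from Lamb3. Lamb1 was at 8.76 and 5.31 CPM in leptotene/zygotene, against 509 and 503 at day 7 (-6.27 ± 0.41, adjusted p = 9.5e-07 in edgeR). Lamb2, its counterpart in muscle and vessel laminins, was at 16.1 and 10.4 CPM, against 176 and 179 (-3.80 ± 0.30). Lamc1, the gamma chain of most trimers, was at 15.6 and 5.01 CPM, against 288 and 276 (-4.96 ± 0.60, adjusted p = 4.21e-05). Lamc3, a gamma chain that in rat testis is placed at the contacts between Sertoli cells and spermatids, was at 20.9 and 6.71 CPM, against 299 and 301 (-4.58 ± 0.60, adjusted p = 7.19e-05).

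**Figure D3:**
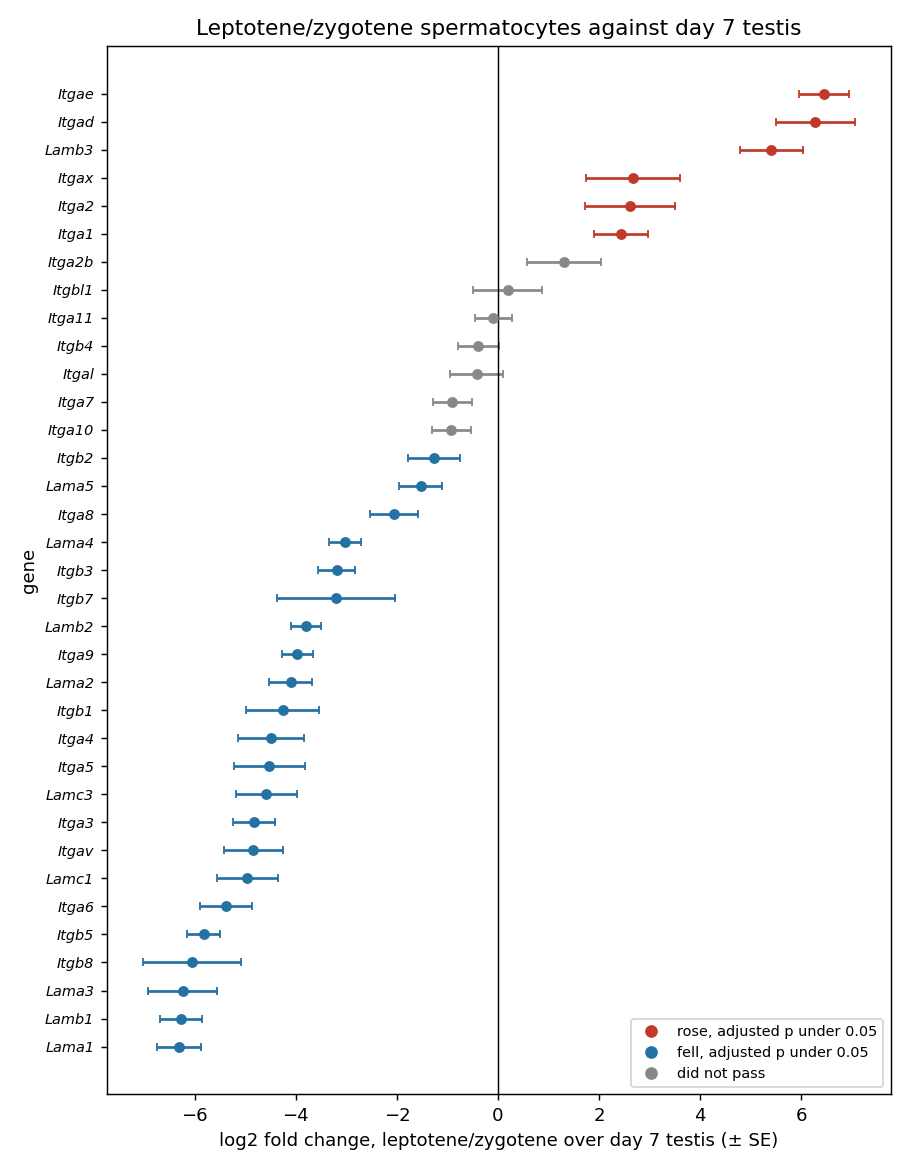
Log2 fold change of leptotene/zygotene spermatocytes over the day 7 testis (horizontal axis, bars ± SE, 2 libraries a stage) for tested members with counts in both stages, ordered by size. Red points rose and blue points fell past the threshold, grey points did not pass; Itgae, Itgad and Lamb3 stand at the high end, and Lama1, Lamb1 and Lama3 at the low end, while Itgam, with 0 counts in leptotene/zygotene, is not drawn.

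Of the laminin receptor subunits Itga3, Itga6 and Itgb1 fell, and Itga7 and Itgb4 did not pass. Itga6 was at 5.35 and 2.4 CPM in leptotene/zygotene, against 143 and 133 at day 7 (-5.38 ± 0.52, adjusted p = 9.72e-06 in edgeR). Itga3, which pairs with Itgb1 to bind epithelial laminins, was at 0.486 and 1 CPM, against 27.1 and 23.5 (-4.83 ± 0.41). Itgb1 was at 44.3 and 9.12 CPM, against 479 and 472 (-4.26 ± 0.72, adjusted p = 0.000383). The replicates differ widely for Itgb1, yet both lie below either day 7 library. Itga7 was at 6.81 and 13.5 CPM, against 21.1 and 19 (-0.90 ± 0.38, adjusted p = 0.0528), and Itgb4 at 2.92 and 1.8, against 3.09 and 2.52 (adjusted p = 0.404). The Itga7 result lay close to the threshold and passed it in 9 of 17 other fits, among them upper-quartile factors, plain library sizes and the fit without the second leptotene/zygotene library (-1.58).

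Receptors of fibronectin, vitronectin and related ligands fell as well. Itgb5, a partner of Itgav, was at 1.95 and 1.4 CPM in leptotene/zygotene, against 85.8 and 89.8 at day 7 (-5.82 ± 0.33, adjusted p = 5.33e-07 in edgeR), and Itgb8 at 0 and 0.401, against 21.1 and 23 (-6.06 ± 0.97). Itgav was at 5.84 and 1.3 CPM, against 71.7 and 79.4 (-4.84 ± 0.58). Each of these 3 was at least an order of magnitude lower in both libraries. Itga5 fell by 4.52 ± 0.70, Itga4 fell by 4.49 ± 0.66 and Itga9 fell by 3.97 ± 0.31. Itgb3, the platelet and vascular partner of Itgav, was at 4.86 and 2.81 CPM, against 33 and 30.2 (-3.19 ± 0.37). Itga8, the nephronectin receptor subunit of mesenchyme, was at 6.81 and 3.61 CPM, against 20.6 and 19.2 (-2.06 ± 0.47, adjusted p = 0.0025).

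The spermatocyte replicates differed in both directions. Of the 38 members, 12 were higher in the first library at both stages, like the Sertoli, Leydig and endothelial markers, 14 were higher in the second library at both stages, and 12 did neither. Over all genes tested, replicate deviations correlated by 0.64 between leptotene/zygotene and pachytene. The share of all genes in each order is not given here, so these counts are not a result about the members. Itgb1 was at 44.3 CPM in the first and 9.12 in the second leptotene/zygotene library, and at 37.4 and 12.3 in the pachytene ones. Lamc1 was at 15.6 and 5.01 CPM and at 10.4 and 3.58, and Itga5 at 2.92 and 0.601 and at 2.65 and 0.551. These 3 genes were chosen after their values were seen, as examples of the first kind. Lama5 was of the second kind, at 17 and 27.1 CPM and at 12.2 and 23.7. The first libraries also had more reads in HTSeq's summary categories, which lie outside the gene counts. These took 63.3% of reads in the first and 45.4% in the second leptotene/zygotene library, and 64.5% and 49% in the pachytene ones. The part of residual somatic cells, or of these read shares, in the replicate differences was not tested.

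**Figure D4:**
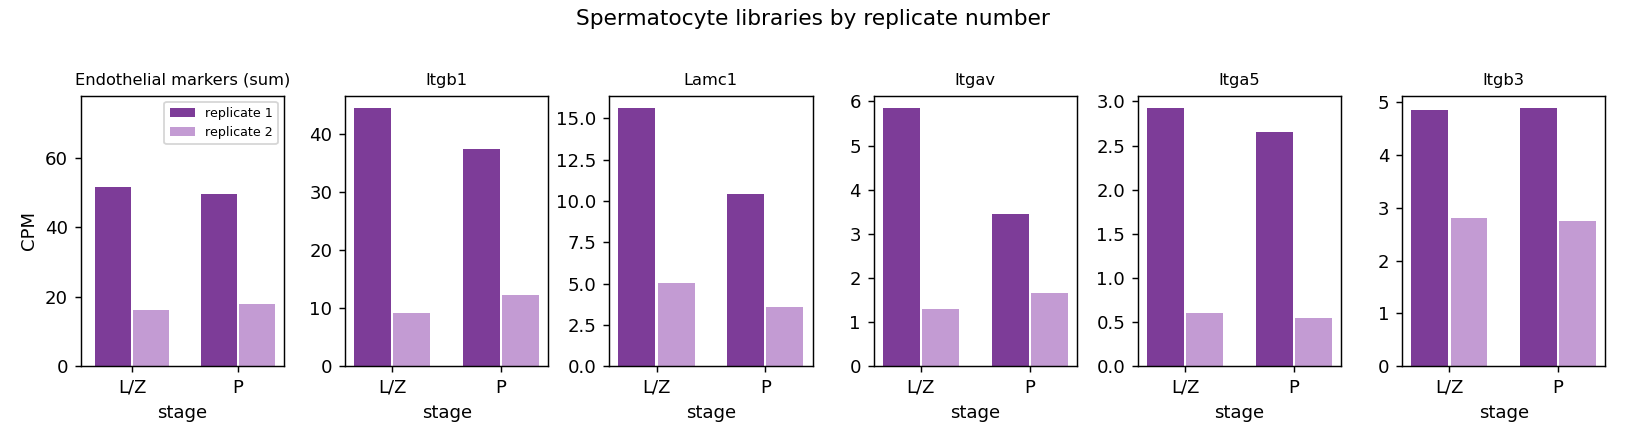
Level in CPM (vertical axes start at 0, scaled per panel) in the leptotene/zygotene (L/Z) and pachytene (P) libraries, with replicate 1 as the dark and replicate 2 as the light bar; the first panel is the sum of 7 endothelial markers and the others are single genes. The genes were chosen for this pattern after their values were seen. In every panel the replicate 1 bar is higher at both stages, for example 51.6 against 16.3 CPM for the endothelial sum and 44.3 against 9.12 CPM for Itgb1 in leptotene/zygotene.

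The members that rose in leptotene/zygotene were Itgae, Itgad, Lamb3, Itga1, Itga2 and Itgax. The fractions also held spermatid transcripts, as given above, so these rises cannot be assigned to spermatocytes alone. Itgae, the alpha subunit by which resident lymphocytes bind E-cadherin, had 0.37 and 1.21 CPM in day 1 testis, 0.666 and 0.733 in day 3 testis, 1.54 and 1.35 in day 7 testis, 82.2 and 172 in leptotene/zygotene cells, and 104 and 107 in pachytene cells. All 4 spermatocyte libraries lie above all 6 testis libraries, and the fold change over day 7 was 6.45 ± 0.50 (adjusted p = 2.29e-06 in edgeR). In RefSeq the gene Gsg2, which encodes the mitotic kinase Haspin, lies inside Itgae. Gsg2 was at 4349 and 3810 CPM in leptotene/zygotene cells and at 2977 and 1835 in pachytene cells, against 14.5 and 17.3 at day 7. The sources used here do not say whether strand was used in counting, so reads of overlapping transcripts cannot be told apart, and the part of Gsg2 in the Itgae counts was not tested.

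Itgad, a subunit of macrophage integrins, had 0.74 and 0.69 CPM in day 1 testis, 0.666 and 0.163 in day 3 testis, 0.441 and 0.184 in day 7 testis, 11.2 and 37.8 in leptotene/zygotene cells, and 13.4 and 22.7 in pachytene cells. The stages do not overlap between testis and spermatocytes (6.28 ± 0.78 over day 7, adjusted p = 4.72e-05 in edgeR). Itgam, Itgax and Itgad follow each other in RefSeq's gene order, and they did not move together. Itgam, the complement receptor of myeloid cells, had 0 counts in both leptotene/zygotene libraries, against 77 at day 7, and was at least 8.98-fold lower, measured against 3 counts over both libraries; this call was lost without the second leptotene/zygotene library. Itgax, the dendritic cell subunit, was at 3.4 and 1.2 CPM, against 0.497 and 0.0614 (2.68 ± 0.93, adjusted p = 0.025). The Itgax call rests on 19 counts and was lost with upper-quartile factors or plain library sizes, and on dropping the second day 7 library (1.81, adjusted p = 0.133), the first leptotene/zygotene library (2.02, adjusted p = 0.098) or a day 1 library. A long non-coding RNA inside Itgad, 4931431B13Rik, was at 4.86 and 8.12 CPM in leptotene/zygotene, against 0 and 0 at day 7.

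Beside these subunits, the 9 macrophage and leukocyte markers summed to 75.4 and 42 CPM in the leptotene/zygotene libraries, against 84.4 and 101 at day 7. They summed to 12.4 and 7.43 CPM in the pachytene libraries. C1qb alone gave 50.1 and 27.4 CPM of the leptotene/zygotene sums. The panel also holds Emr1, Csf1r, Cd68, Ptprc, Tyrobp, Lyz2, C1qa and Cd14. The part of leukocytes in the values of Itgae, Itgad and Itgax was not tested. Of the 9 markers, C1qa, Cd68, Csf1r, Lyz2 and Tyrobp were called lower than at day 7 and C1qb higher, against 42% and 36.5% of all genes. Ptprc, which defines leukocytes, was not called, at 2.43 and 1 CPM in leptotene/zygotene against 3.2 and 2.4. Nor were Emr1, at 4.38 and 7.42 against 4.86 and 7.31, and Cd14, at 5.35 and 1.4 against 1.05 and 1.04. The beta subunits with which Itgae, Itgad and Itgax are known to pair were lower. Itgb7, the partner of Itgae, had 1 count in leptotene/zygotene against 31 at day 7, a ratio of 0.0922 with a counting interval of 0.00226 to 0.553 (exact, 95%), and 0 in pachytene. Its call (adjusted p = 0.0314 in edgeR) was lost without either day 7 library, without the second leptotene/zygotene library (-0.90), in a fit of the 2 stages alone, with DESeq2 and with median-ratio factors. Itgb2, the partner of Itgad, was at 0.973 and 1 CPM, against 2.59 and 2.21 (-1.26 ± 0.51, adjusted p = 0.0436), a call lost in DESeq2, with median-ratio factors, with no filter, with the replicate number as a block (adjusted p = 0.0641) and without any of the 4 libraries compared. Itgal, which pairs with Itgb2 on lymphocytes, was at 0.486 and 2.91 CPM, against 2.54 and 3.26 (adjusted p = 0.478).

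Lamb3, the beta chain of the epithelial laminin that anchors hemidesmosomes, had 1.85 and 1.64 CPM in day 1 testis, 3.7 and 1.3 in day 3 testis, 0.331 and 0.799 in day 7 testis, 18 and 29.5 in leptotene/zygotene cells, and 7.94 and 9.91 in pachytene cells. All 4 spermatocyte libraries are above the testis libraries, and Lamb3 rose by 5.41 ± 0.62 over day 7 (adjusted p = 2.76e-05 in edgeR). Lama3, which shares its trimer, fell, as given above. Lamb3, Itgad and Itgae were called higher in each of the 17 other fits tried for this comparison.

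The collagen receptors split. Itga1, which binds basement membrane collagen together with Itgb1, had 21.1 and 20.7 CPM in day 1 testis, 6.63 and 24.1 in day 3 testis, 20.1 and 20.1 in day 7 testis, 76.4 and 138 in leptotene/zygotene cells, and 43.3 and 51.9 in pachytene cells. It was higher in all 4 spermatocyte libraries and rose by 2.43 ± 0.53 over day 7 (adjusted p = 0.00184 in edgeR), a call lost with plain library sizes (1.01, adjusted p = 0.0755). The gene Pelo lies inside Itga1 in RefSeq and was at 23.8 and 29.3 CPM in leptotene/zygotene, against 21.4 and 23.1 (adjusted p = 0.394). Itga2, the neighbouring collagen receptor gene, was at 0.973 and 9.72 CPM, against 0.993 and 1.04 (2.61 ± 0.89, adjusted p = 0.0215). That rise rests on the second leptotene/zygotene library, without which the value was -0.09, and it was lost too on plain library sizes (1.15) or when either day 7 library was dropped. Itga10 and Itga11, the cartilage and fibroblast collagen receptors, were at 2.43 and 2.91 against 5.13 and 5.28 CPM (adjusted p = 0.0543) and at 6.81 and 14.4 against 11.8 and 12 (adjusted p = 0.835). Itga10 passed as lower in 8 of 17 other fits, among them plain library sizes (-2.34, adjusted p = 0.000346).

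The remaining members did not pass. Itga2b, the platelet subunit, was at 1.46 and 3.91 CPM in leptotene/zygotene, against 1.6 and 0.86 (1.30 ± 0.73, adjusted p = 0.126 in edgeR). Itgbl1 was at 3.4 and 17.2 CPM, against 10.5 and 9.52 (0.19 ± 0.68, adjusted p = 0.813). The Itgbl1 libraries straddle the day 7 values, and Fgf14, whose span in RefSeq overlaps Itgbl1, rose to 39.9 and 38.1 CPM in leptotene/zygotene, against 1.27 and 1.54 (4.79 ± 0.50, adjusted p = 1.55e-05).

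**Figure D5:**
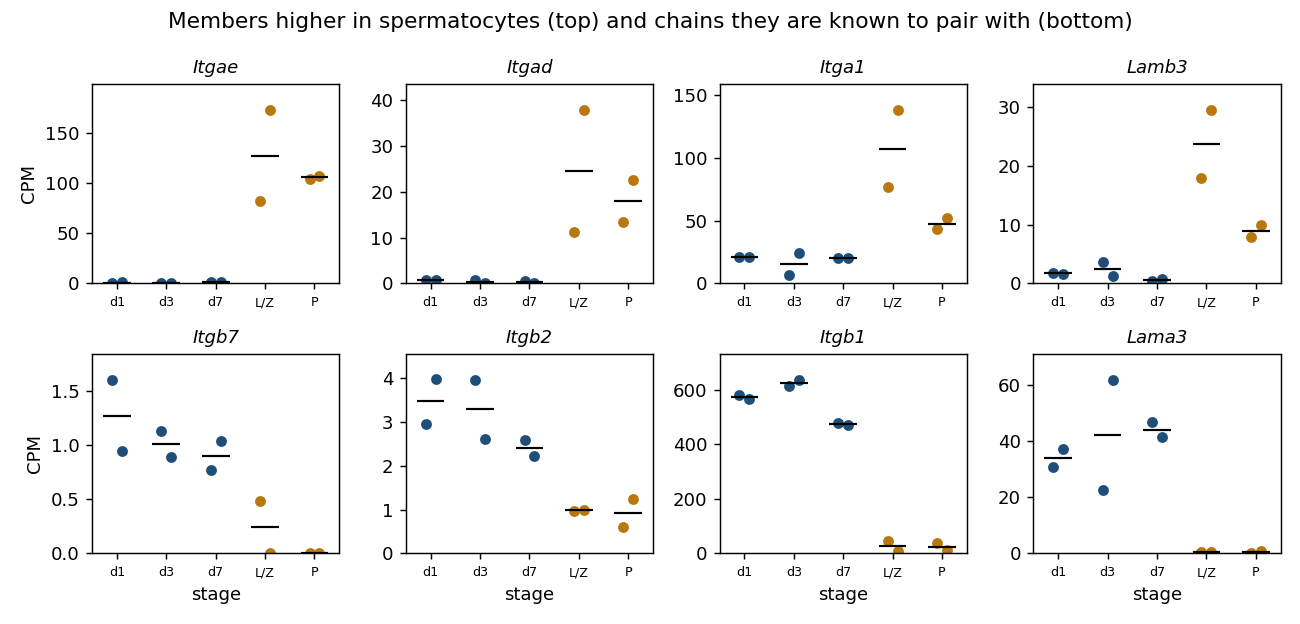
Level in CPM (vertical axis, starting at 0, scaled per gene) in the whole testis on days 1, 3 and 7 (d1, d3, d7; blue) and in leptotene/zygotene (L/Z) and pachytene (P) spermatocytes (orange). Points are libraries and lines are means of 2. The top row is higher in the spermatocyte libraries, which also held spermatid transcripts. The bottom row shows a chain that each top gene is known to join (Itgb7 with Itgae, Itgb2 with Itgad, Itgb1 with Itga1, Lama3 with Lamb3), which is lower in those libraries.

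Between pachytene and leptotene/zygotene, members were called no more often than all genes. In pachytene 4 fell (10.8%) and 2 rose (5.41%) of 37, against 13.2% and 9.03% of all genes. With plain library sizes, where the median of all genes was 0.49 in place of -0.06, 2 fell and 6 rose, and with upper-quartile factors 3 fell and 3 rose. The shares of all genes called under these scalings are not given here, so the counts are not set against them. Itgb5 was at 9.77 and 7.02 CPM in pachytene, against 1.95 and 1.4 in leptotene/zygotene (2.43 ± 0.34, adjusted p = 0.00183 in edgeR). It lost its call in the fit of the 2 stages alone (2.52, adjusted p = 0.0674), in which no member passed and 5 had an unadjusted p under 0.05. The other member that rose, Itga4, was at 6.1 and 9.22 CPM, against 3.89 and 0.701 (2.35 ± 0.69, adjusted p = 0.0366), a call lost in the fit of the 2 stages alone and without either library of day 1, day 7 or pachytene, or the second leptotene/zygotene library (1.01).

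Itga11 was at 3.26 and 2.34 CPM in pachytene, against 6.81 and 14.4 in leptotene/zygotene (-2.02 ± 0.41, adjusted p = 0.00901 in edgeR), lost without the second leptotene/zygotene (-1.29) or second pachytene library and in the fit of the 2 stages alone. Lama4 was at 2.24 and 2.07 CPM, against 5.35 and 6.61 (-1.52 ± 0.37, adjusted p = 0.0187), lost without the second leptotene/zygotene or either pachytene library, in the fit of the 2 stages alone and with plain library sizes (-0.92). Itga9 was at 2.44 and 1.38 CPM, against 4.38 and 4.11 (-1.18 ± 0.36, adjusted p = 0.0418), and its call was lost when any library other than the first pachytene one was left out, with upper-quartile factors or plain library sizes (-0.58), with no filter and in the fit of the 2 stages alone. Itgax had 0 counts in pachytene and 19 in leptotene/zygotene, at least 6.41-fold lower; this was lost without either day 1 library, the first leptotene/zygotene library or either pachytene library. Of the members higher in leptotene/zygotene than at day 7, Itgae, Itgad, Itga1 and Lamb3 had pachytene values of -0.28 ± 0.38, -0.49 ± 0.57, -1.18 ± 0.51 and -1.43 ± 0.50 on the log2 scale relative to leptotene/zygotene, with adjusted p from 0.0691 to 0.658.

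Other parts of the basement membrane followed the laminin chains. Of 26 genes for collagen IV, nidogens, perlecan and related components, 23 fell in leptotene/zygotene relative to day 7 and 0 rose (median -4.04), against 42% and 36.5% of all genes (median -0.31), among them Col18a1 (-6.09 ± 0.34), Col4a1 (-6.01 ± 0.56), Pxdn (-5.93 ± 0.82), which crosslinks collagen IV, and Hmcn1 (-5.41 ± 0.71). Col4a1 averaged 13.7 CPM in leptotene/zygotene and 810 at day 7. Between day 1 and day 7, 2 of the 26 fell (2.28% of all genes), Tinagl1 (-2.08 ± 0.33) and Frem1 (-1.64 ± 0.37), and between day 3 and day 7 Tinagl1 alone fell (-2.01 ± 0.33). In pachytene 4 were lower than in leptotene/zygotene and 1 was higher (13.2% and 9.03% of all genes), with Col4a2 at -1.37 ± 0.38, and Fras1, a basement membrane anchor of embryonic skin, rose by 1.76 ± 0.45 to a mean of 21.4 CPM.

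A list of integrin adaptors and regulators was mixed. Of 34 tested, 24 fell in leptotene/zygotene and 8 rose (median -2.13), against 42% and 36.5% of all genes. Tns3, a tensin, fell by 6.12 ± 0.61, Kank2 fell by 6.04 ± 0.53 and Rsu1 fell by 5.64 ± 0.67, and Parvg, the parvin of blood cells, rose by 6.81 ± 0.47 to a mean of 59.6 CPM. The others that rose were Itgb1bp1, an inhibitor of integrin activation, Itgb3bp, a protein of the nucleus and centromere, Lims2, Plec, Pxn, Tln2 and Tns1. Tln2, a talin, which activates integrins, averaged 676 CPM in leptotene/zygotene and 42.7 at day 7. In pachytene 8 were lower than in leptotene/zygotene and 1 was higher (13.2% and 9.03% of all genes), with Tns1 at -1.95 ± 0.29, Tln2 at -1.78 ± 0.31, Actn1 at -1.26 ± 0.27 and Actn4 at -1.22 ± 0.22. The summed level of the spermatid markers was also lower in pachytene, as given above, and its part was not tested. In the testis Fermt1 alone was called, lower on day 7 than on day 1.

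Of 14 laminin receptors outside the integrin family and their partners, 9 fell in leptotene/zygotene and 3 rose, against 42% and 36.5% of all genes. Dag1, dystroglycan, averaged 39.4 CPM in leptotene/zygotene and 815 at day 7 (-4.40 ± 0.39), and its intracellular partner Dmd, dystrophin, fell by 4.28 ± 0.30. The proteoglycan Sdc4 fell by 4.20 ± 0.77. Sgca, a sarcoglycan of muscle, averaged 17.7 CPM in leptotene/zygotene, against 2 counts in all at day 7, a ratio of 334 with a counting interval of 91.6 to 2778. The other 2 that rose were Sgcb and Rpsa, the second of which has many near-identical pseudogenes and is uncertain. Gpc1, a glypican, averaged 57.1 CPM on day 7 and 241 on day 1 (-2.08 ± 0.25), and it was lower on day 7 than on day 3 as well (-1.97 ± 0.25). Sdc3, a syndecan, averaged 69.4 CPM on day 7 and 215 on day 1 (-1.64 ± 0.30). In pachytene 2 were lower than in leptotene/zygotene (13.2% of all genes), Sdc3 (-3.11 ± 0.35) and Sdc2 (-1.74 ± 0.47).

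Of 9 tested genes with laminin-like domains, 3 fell and 1 rose from day 1 to day 7, against 2.28% and 1.08% of all genes. Ntn4, a netrin built into basement membranes, averaged 19.5 CPM on day 7 and 2.56 on day 3 (2.96 ± 0.50, adjusted p = 0.0288 in edgeR), and 1.61 on day 1 (adjusted p = 0.0139). Megf6 fell by 1.76 ± 0.24 and Ntn3 fell by 1.44 ± 0.28, and both were also lower on day 7 than on day 3. No gene of these 4 lists passed between day 1 and day 3. In leptotene/zygotene 5 were lower than at day 7 and 2 were higher, against 42% and 36.5% of all genes. Stab1 fell by 4.54 ± 0.49, Ntn3 fell by 4.37 ± 0.41 and Megf6 fell by 4.21 ± 0.31.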

How the data were processed

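RNA from whole testis and purified spermatocytes was measured by RNA-seq in 10 libraries. The submitters' processing notes name mm9 and the tools HTSeq 0.6.1, BWA 0.7.8, edgeR 3.6.8 and Bowtie 0.12.7. The role of each, the annotation and the strand setting are not stated there. The deposited gene table holds raw counts as whole numbers. Its HTSeq summary categories (44.7% to 64.5% of reads per library) entered neither library sizes nor tests. The small RNA table was not used.

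Genes were kept by filterByExpr with a minimum count of 10 (16872 of 23366), scaled by TMM and fitted over all 10 libraries by stage in edgeR 4.0.16 (R 4.3.3), with a two-sided quasi-likelihood F test, 5 residual degrees of freedom and Benjamini-Hochberg adjustment over all genes. The SE was taken from F as the log2 fold change, unsigned, divided by its root. The test was also tried on simulated data, whose outcome is not given here. Those counts were drawn without correlation between replicates, so the trial is no support for the calls. A count of 3 came to 0.0999 to 1.46 CPM per library, and such floors and counting intervals cover counting error only. Alternatives were DESeq2 1.42.0, other scalings, no filter, fewer stages, the replicate number as a block, and each library left out. Named were members of at least 10 CPM in a stage or past the test, and up to 4 of each other list with the largest change at 10 CPM or more. Members below that level and further list genes that are named were picked after their values were seen. The members and lists were chosen with earlier results of these data known. Promoter windows and gene order came from RefSeq on GRCm38.p6, which matched all 38 members by symbol. A member and a list gene that enter the counts are not reported here by name.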

Additional observations from a re-analysis of the deposited data

How the results depend on the processing

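The number of members called was within 1.5 times the value reported in each fit of leptotene/zygotene against day 7. From day 3 to day 7, where 1 was called, DESeq2 called 4, a fit of the 2 stages alone 4 and a fit of the whole-testis libraries 6, and leaving out a library gave 0 to 2. From day 1 to day 7, where 2 were called, the fit of the 2 stages gave 21, that of the whole-testis libraries 11, and leaving out a library 0 to 5. In the fits with no call, 4 to 7 members had an unadjusted p under 0.05. From leptotene/zygotene to pachytene, where 6 were called, the fit of the 2 stages gave 0 and leaving out a library 1 to 9. A stage reduced to 1 library was assumed to vary like the other stages. The cause of these shifts was not tested. Apart from the whole-testis fit, the shares of all genes called in these other fits are not given here. Their counts of members are therefore not set against all genes. In leptotene/zygotene Itga2 ranged from -0.09 to 3.23 when a library was left out.

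With the replicate number as a block, 0, 1, 2, 28 and 7 members were called in the order of the comparisons given, against 0, 1, 2, 29 and 6, with Itgb2 lost in leptotene/zygotene and Lamc3 gained in pachytene (-1.87, adjusted p = 0.0487). Replicate deviations correlated by 0.64 between leptotene/zygotene and pachytene and by -0.108 to 0.0182 between other stages, so the numbers, which the labels tie to no shared animal or day, were not taken as pairs for all stages. The main test of pachytene against leptotene/zygotene thus treated its libraries as unpaired despite their correlation, and no fit paired those stages alone. Depth limits the low members most: 3 counts equal 1.46 CPM in the first leptotene/zygotene library.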
